A study of Mus musculus with 23 samples.

Results

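MicroRNA gene models were followed through 5 RNA libraries of a mouse cell line that was turned into fat cells. The deposited table lists 24029 genes, of which 1081 carry a microRNA symbol, and 61 of these are described here. The members were chosen by their measured values: a symbol beginning with Mir and a digit, or with Mirlet, had to exceed 1 RPKM in at least 2 of the 5 libraries. RPKM divides the reads of a gene model by the model's length and by the library's mapped reads. For short models the deposited values rise more steeply with falling length than this division alone gives, as described below. Because the selection used these values, every level and every difference between libraries below is a description, and no test was made. Of the members 57 are models of a microRNA hairpin and 4 are long host transcripts, namely Mir22hg, Mir143hg, Mirlet7bhg and Mir99ahg.

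The cells were C3H10T1/2, a line of mesenchymal stem cells from mice of the C3H strain. All groups share a pretreatment with human recombinant BMP7 for 3 days. Day 0 stands for pre-adipocytes. Day 7 stands for mature adipocytes, after an induction medium with DEX, IBMX, insulin, Rosi and T3 until day 2 and a medium with insulin, Rosi and T3 from then on. At each day a standard library was made from RNA enriched on oligo(dT) beads, fragmented and copied from random hexamers. At each day a library labelled N9 was also made by TELP, a library construction method after which the series is titled, and day 7 has a further TELP library labelled T18. The labels do not spell out N9 or T18. A sixth library, TELP N9_ss at day 7, served only as a stand-in for N9 among the alternative settings, because its values for the 26 members above 1 RPKM were 0.956 times those of N9 at the median, and 21 of these ratios lay within 0.1% of that median. The series lists 23 samples, and its 17 chromatin libraries were not analysed here.

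With 1 library per group there is no replicate error behind any value, and nothing in the labels says that the libraries came from separate cultures. Of the markers checked against the labels, 7 of 7 adipocyte markers were higher at day 7 by at least 1 log2 unit in both library types, 3 of 6 mesenchymal precursor markers were lower at day 7 in the standard libraries and 6 of 6 in TELP N9, and none of 11 markers of bone, blood, endothelial, muscle or epithelial cells exceeded 1 RPKM in any of the 5 libraries. Summed RPKM of the adipocyte markers was 39.9 at day 0 and 14538 at day 7 with the standard procedure, and 29.8 and 31964 with TELP N9. Between 10351 and 11306 genes reached 1 RPKM in the standard and N9 libraries, and 6797 did in T18.

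A microRNA is cut out of a longer primary transcript. Drosha and Dgcr8 release the hairpin in the nucleus, Xpo5 carries it to the cytoplasm, Dicer1 cuts out the mature strands, and an Argonaute protein uses them to find target mRNAs through the seed, bases 2 to 8. Many hairpins lie inside an intron or exon of another gene and are transcribed with it. In fat cells microRNAs are known both to promote and to restrain differentiation. A value of a hairpin model counts the reads that fell on the hairpin, and the files do not show whether a read came from the mature strand, the hairpin or a longer transcript.

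Mature sequences of the members on the lists of adipose microRNAs and of microRNAs of other tissues are shown because these carry the known roles, with the seed in capitals. RefSeq on GRCm38.p6 had hairpin sequences for 47 of the 61 members. For 52 members it had 75 mature entries, which hold 73 different sequences with 71 distinct seeds. The let-7 members share 1 seed, GAGGUAG, which no other member has.
mmu-let-7c-5p: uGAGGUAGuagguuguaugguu
mmu-let-7d-5p: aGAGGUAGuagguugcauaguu
mmu-let-7i-5p: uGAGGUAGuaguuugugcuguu
mmu-miR-29c-3p: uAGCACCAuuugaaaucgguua
mmu-miR-31-5p: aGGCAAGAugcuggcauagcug
mmu-miR-148a-3p: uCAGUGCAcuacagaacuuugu
mmu-miR-7a-5p: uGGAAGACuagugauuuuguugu

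The mature sequences of the models with the highest median RPKM are shown next, since their values in each library are given below. The second shared seed, UCUCUUU, belongs to miR-692, whose mature sequence is the same for Mir692-1, Mir692-2 and Mir692-3.
mmu-miR-3064-5p: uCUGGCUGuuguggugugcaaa
mmu-miR-682: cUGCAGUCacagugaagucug
mmu-miR-692: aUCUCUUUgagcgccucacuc
mmu-miR-703: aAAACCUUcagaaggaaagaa
mmu-miR-6236: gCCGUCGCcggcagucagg

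The hairpins of 3 members are shown whole, with the mature strands in capitals, because their length sets what a read is worth. Mir3064 lies at chr11:106782693-106782759 on the minus strand, within Ddx5, and is 67 nt long. Mir6986 lies at chr19:4623898-4623955 on the minus strand, within Rce1, and is 58 nt long. Mir8114 lies at chr1:153899926-153900036 on the plus strand, within Glul, and is 111 nt long. These coordinates are those of GRCm38, while the authors' values are on mm9. The gene table used does not give exons, so exonic and intronic positions were not assigned.
Mir3064: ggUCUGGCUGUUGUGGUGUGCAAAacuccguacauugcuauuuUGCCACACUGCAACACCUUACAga
Mir6986: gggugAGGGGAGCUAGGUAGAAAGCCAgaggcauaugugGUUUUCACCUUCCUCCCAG
Mir8114: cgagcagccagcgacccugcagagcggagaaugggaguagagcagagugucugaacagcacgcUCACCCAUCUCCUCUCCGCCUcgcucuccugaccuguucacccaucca

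Members above 1 RPKM numbered 46 and 49 with the standard procedure at day 0 and day 7, 46 and 26 with TELP N9 at day 0 and day 7, and 14 in T18. Members listed at 0 numbered 9, 8, 8, 27 and 44 in that order, so the day 7 TELP libraries, T18 above all, hold few of them. The rule needed 2 libraries: 26 members were above 1 RPKM in exactly 2, 20 in 3, 6 in 4 and 9 in all 5. The commonest pattern, shared by 14 members, was both standard libraries and TELP N9 day 0. Among all 1081 microRNA symbols 69, 67, 98, 36 and 16 were above 1 RPKM in the same order of libraries, and 977, 987, 949, 1030 and 1055 were listed at 0.

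At the edge of the rule Mir3473f was just inside, with a second highest value of 1.15 RPKM, followed by Mirlet7bhg with 2.57 and Mir143hg with 2.69. Just outside were Mir17hg with 0.744, Mir705 with 0.0883 and Mir762 with 0.0119 RPKM. Mir705 shows what the rule leaves out, since it had 130 RPKM in TELP N9 day 0 and 0.0883 or less in the other 4 libraries.

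**Figure D1:**
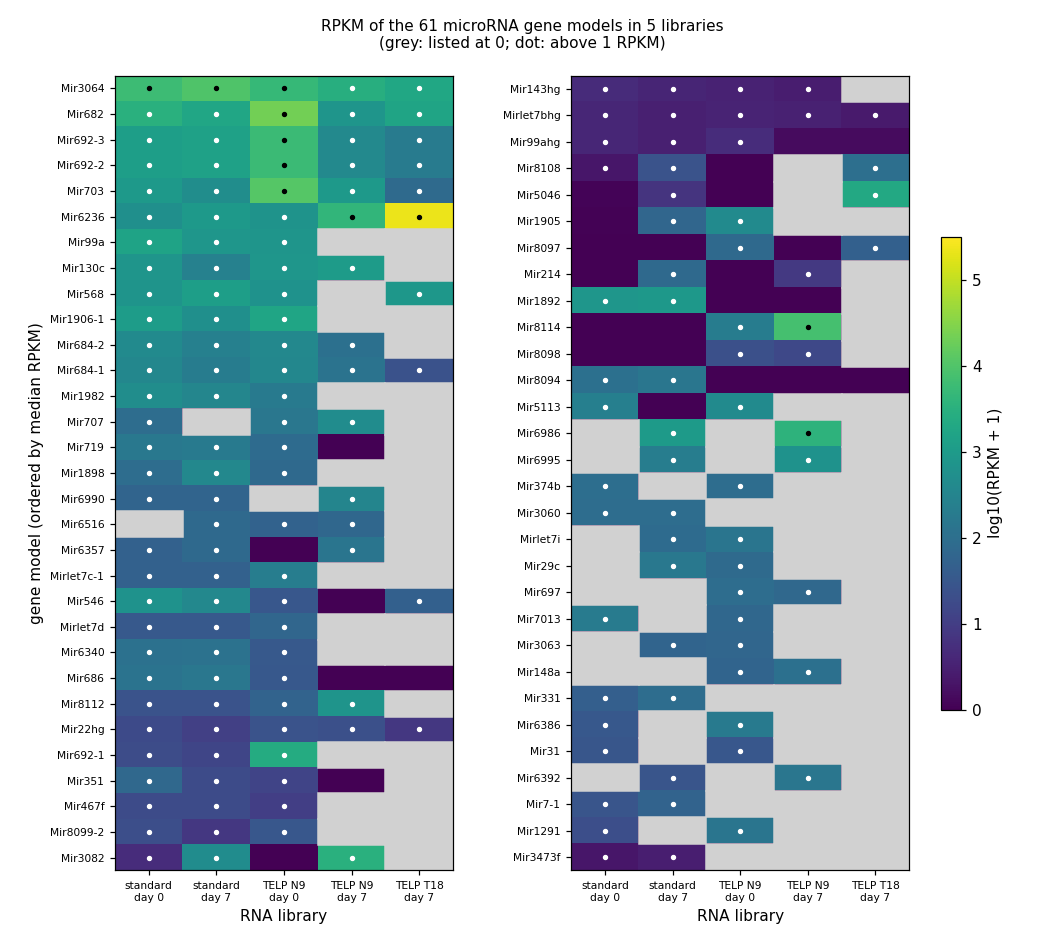
RPKM of the 61 members (rows, ordered by median) in the 5 libraries (columns), coloured by log10(RPKM + 1). Grey cells are listed at 0 and dots mark values above 1 RPKM. The 9 members with a dot in every column include Mir3064, Mir682 and Mir6236, and T18 is grey for 44 members.

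Many of these values rest on very few reads. The low values of short models step in whole multiples of a value that depends on the length of the model, and this value was taken as 1 read. At 100 nt 1 read was worth an estimated 37.9 RPKM for standard day 0, 38.8 RPKM for standard day 7 and 18.5 RPKM for TELP N9 day 0. In TELP N9 day 7 it was worth 105 RPKM and in T18 113 RPKM. The value climbs steeply as models get shorter: at 60 nt 1 read was worth 710 RPKM for standard day 0 and 2546 RPKM for TELP N9 day 7. Of values between 0.5 and 5.5 estimated reads 59 of 82 came within 0.05 of a whole number in standard day 0 (72.0%), 42 of 68 in standard day 7 (61.8%) and 74 of 90 in TELP N9 day 0 (82.2%). The same held for 27 of 49 in TELP N9 day 7 (55.1%) and 33 of 39 in T18 (84.6%), where this tolerance covers 10% of the range. The curves were fitted to these same values after they had been seen, and model lengths come from RefSeq on GRCm38, so the read numbers are estimates.

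Among hairpin members above 1 RPKM the median was 2.21 estimated reads in standard day 0, 2.32 in standard day 7, 6.99 in TELP N9 day 0, 1.96 in TELP N9 day 7 and 1.65 in T18. Members at 3 reads or fewer, with estimates rounded to whole reads here and below, were 24 of 42, 30 of 45, 13 of 42, 15 of 23 and 10 of 12 in that order. Members at 1 read or fewer were 17, 18, 3, 10 and 6, so TELP N9 day 0 is the library in which the fewest members sit at the level of single reads. A count of 0 allows up to 3 reads. For a model of 100 nt this equals 114 RPKM in standard day 0, 116 in standard day 7, 55.4 in TELP N9 day 0, 314 in TELP N9 day 7 and 340 in T18. In all of these but TELP N9 day 0 the limit is above 91.1 RPKM, the median of members above 1 RPKM in the standard libraries. These limits cover counting error only.

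**Figure D2:**
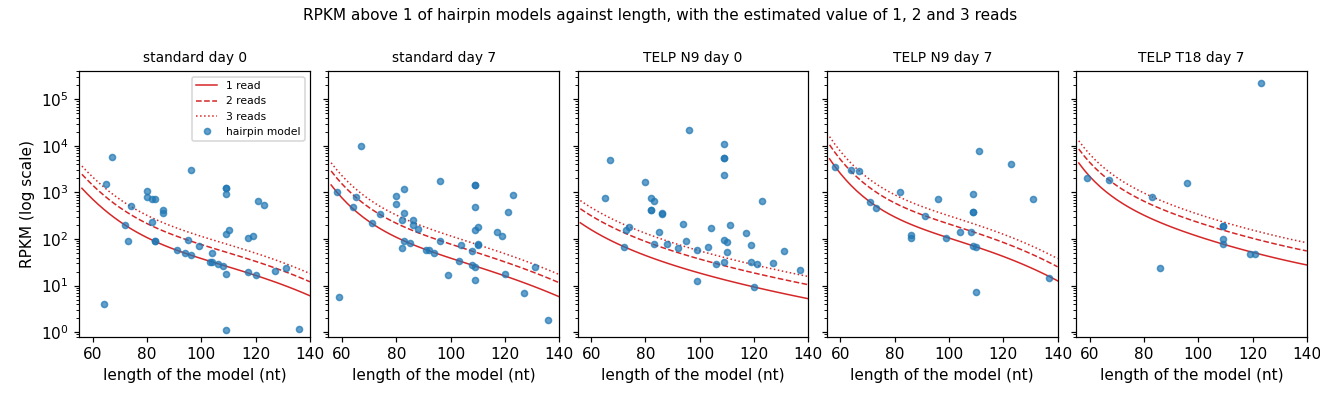
RPKM (log axis) of hairpin members above 1 RPKM against the length of the model in nt, 1 panel per library. Lines give the estimated RPKM of 1, 2 and 3 reads, and many points lie on them, while Mir3064, Mir682, Mir703 and Mir6236 lie far above in at least 1 library.

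Mir3064 had the highest median level. Mir3064, which lies in the gene of the RNA helicase Ddx5, had 5897 RPKM in standard day 0, 9766 in standard day 7, 4886 in TELP N9 day 0, 2869 in TELP N9 day 7 and 1875 in T18. At its length these are an estimated 18.7, 30.6, 52.0, 3.00 and 2.01 reads, so the T18 value of 1875 RPKM is about 2 reads. Ddx5, itself a cofactor of the Drosha complex, had 217, 167, 227, 188 and 47.6 RPKM. The order of the libraries for the hairpin was not that of its gene.

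Mir682 had 3076, 1762, 21770, 739 and 1598 RPKM in the same order of libraries, and Mir703 had 921, 494, 11014, 938 and 77.3 RPKM. Both were highest in TELP N9 day 0, with an estimated 1008 and 825 reads there against at most 68.1 and 35.2 reads in the other libraries. Mir692-2 and Mir692-3 carry identical values in all libraries, 1227, 1422, 5527, 382 and 193 RPKM, also highest in TELP N9 day 0. The third copy, Mir692-1, had 17.9 and 12.99 RPKM in the standard libraries, 2384 in TELP N9 day 0, and was listed at 0 in both day 7 TELP libraries. In RefSeq Mir682, Mir684-1, Mir692-2, Mir692-3 and Mir8099-2 overlap a pseudogene, those of Mir692-2 and Mir692-3 being copies of ferritin light chain. Ferritin light chain itself, Ftl1, had 756, 1030, 980, 1090 and 316 RPKM. How the authors' counting divided reads among near-identical copies is not given in the sources used here, so the levels of these members are uncertain.

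Mir6236 made up most of the members' level in T18. It had 542, 897, 664, 4123 and 221011 RPKM, and took 38.0% of the summed RPKM of T18 against 0.157% to 0.705% in the other 4 libraries. Its reads numbered an estimated 37.6, 64.2, 78.2, 114 and 4732. Rn45s, the ribosomal RNA precursor, also had its highest value in T18, with 98.1, 127, 85.7, 1210 and 3239 RPKM. The small nuclear RNA Rnu12 was at a listed 0 in 3 libraries, both standard ones and TELP N9 day 0, and had 132 RPKM in TELP N9 day 7 and 144629 in T18. These other RNAs were picked after their values were seen, and their part in the Mir6236 value was not tested. Through Mir6236 the members took 39.2% of the summed RPKM of T18, against 6.22%, 7.12%, 14.5% and 4.75% in the other libraries.

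The 4 host transcripts are long, so their values rest on many more bases, and these values were low in RPKM. Mir22hg, the host of miR-22, had 15.9, 9.79, 24.2, 20.6 and 6.85 RPKM and was the highest of the 4 in every library. Mir143hg, named for miR-143, had 3.73, 2.69, 2.30 and 1.73 RPKM and was listed at 0 in T18. Mirlet7bhg, named for let-7b, had 2.92, 2.03, 2.57, 2.18 and 1.47 RPKM. Mir99ahg, named for miR-99a, had 2.86, 2.12, 4.03, 0.431 and 0.427 RPKM. Its day 7 minus day 0 difference on log2(RPKM + 1) was -0.31 in the standard libraries and -1.81 in TELP N9. For the other 3 this difference was -0.65 to -0.17 over both library types. All 4 were thus lower at day 7 in both types, and only Mir99ahg in TELP N9 by more than 1 log2 unit. Mir99a and Mirlet7c-1, the hairpins next to Mir99ahg, were listed at 0 in both day 7 TELP libraries.

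Differences between libraries are on log2(RPKM + 1), over genes whose mean in the 2 libraries compared was 1 RPKM or more, and a gene is counted as higher or lower at 1 log2 unit or more. These counts have no replicate check. The 5 comparisons share libraries, so they do not count as separate evidence for each other. Log2 differences of members listed at 0 in a library depend on the added 1 RPKM and are no measure of a fold.

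In the standard libraries 56 of the 61 members passed the filter. At day 7 14 were higher than at day 0, with 8.22% of all genes tested higher, and 10 were lower, with 6.53% of all genes lower. The rule used these libraries, so nothing is read from these shares. The median difference of the 56 members was 0.02, against -0.18 over all genes tested. Of the 24 counted, 13 were listed at 0 in a library and 22 had at most 3 rounded reads in the higher library. With more than 3 rounded reads there, 1 was higher, Mir1898, which lies in Zfr, with 89.8 RPKM (1.02 reads) at day 0 and 364 RPKM (4.03 reads) at day 7. The 1 lower was Mir130c, with 732 RPKM (7.78 reads) at day 0 and 257 RPKM (2.68 reads) at day 7. The day 7 gain of Mir6986, from a listed 0 to 1003 RPKM, was 0.97 of a read.

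In TELP N9 53 members passed the filter. At day 7 11 were higher, with 13.9% of all genes tested higher, and 33 were lower, with 29.9% of all genes lower. The median difference of the 53 members was -3.85, against -0.45 over all genes tested, and 25 of the 44 counted were listed at 0 in a library. As given above, 1 read was worth several times more RPKM in TELP N9 day 7 than in TELP N9 day 0, by a factor that changes with length, and the part of this gap in the lower values was not tested. With more than 3 rounded reads in the higher library 3 hairpin members were higher and 21 lower.

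The 3 higher were Mir8114, Mir8112 and Mir6236. Mir8114 had 201 RPKM (16.1 reads) in TELP N9 day 0 and 7712 RPKM (119 reads) in TELP N9 day 7, under 0.01 RPKM in both standard libraries and a listed 0 in T18. Glul, the glutamine synthetase gene around it, had 20.6 and 207 RPKM in the same 2 TELP libraries, and 20.6, 82.2 and 120 RPKM in standard day 0, standard day 7 and T18. Hairpin and gene were thus both higher at day 7 in TELP N9, while in the standard libraries the gene was higher with the hairpin under 0.01 RPKM. Mir8112, within Krcc1, had 54.0 RPKM (8.07 reads) and 708 RPKM (31.0 reads) in TELP N9, and 24.1 and 24.4 RPKM in the standard libraries. Krcc1 had 29.5 and 39.7 RPKM in TELP N9, a difference of 0.42 log2 units.

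Among the 21 lower in TELP N9 were the members with the most reads at day 0. Mir682 went from 1008 to 5.91 estimated reads, Mir703 from 825 to 13.3, and each of Mir692-2 and Mir692-3 from 414 to 5.40. In log2(RPKM + 1) these were differences of -4.88, -3.55, -3.85 and -3.85. In the standard libraries the same members differed by -0.80, -0.90, 0.21 and 0.21, so none reached 1 log2 unit. Mir1906-1, in the imprinted noncoding gene Meg3, had 1703 RPKM (38.5 reads) in TELP N9 day 0 and a listed 0 at day 7. Meg3 had 124 and 7.06 RPKM in the same libraries, and 105 and 40.6 RPKM in the standard ones, where Mir1906-1 had 1086 and 551 RPKM. The strand of Meg3 relative to the hairpin is not given by the tables used.

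Of 48 members in both day comparisons 13 had the same direction in both library types. Of all genes in both, 7.33% were higher in both and 6.03% lower in both, while 0.155% were higher in standard and lower in TELP N9 and 0.0728% the reverse. Since the rule used these libraries, nothing is read from these shares. Higher at day 7 in both were Mir214, Mir3082, Mir6392, Mir6986 and Mir6995, and lower in both were Mir1291, Mir31, Mir351, Mir374b, Mir5113, Mir6386, Mir7013 and Mir8099-2. All 5 higher ones rest on small numbers of reads, at most 3.05 in any library. The lower ones also rest on few reads in the standard libraries, each with at most 3 rounded reads there. In TELP N9 day 0 Mir351, Mir7013 and Mir31 had 0.65, 1.00 and 2.00 reads, and the other lower ones had more, up to 13.4 for Mir1291. Mir6392 lies in Pnpla3, which encodes a lipid droplet protein, and had 27.02 RPKM (0.99 reads) in standard day 7 and 145 RPKM (1.96 reads) in TELP N9 day 7, with a listed 0 in both day 0 libraries. Pnpla3 had 0.05 and 11.8 RPKM in the standard libraries and 0.03 and 28.9 RPKM in TELP N9, so gene and hairpin were both higher at day 7. Mir6990, within Esrra, a nuclear receptor gene of mitochondrial metabolism, was listed at 0 in TELP N9 day 0 and had 318 RPKM (2.01 reads) at day 7. Its standard values were 57.2 and 58.1 RPKM, near 1 read each, while Esrra went from 5.31 to 15.7 RPKM there and from 4.60 to 42.0 in TELP N9.

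Mir214 went against its gene. It lies in Dnm3os, the noncoding transcript from which miR-214 is made, and had 76.6 RPKM (3.05 reads) in standard day 7 and 7.22 RPKM (0.11 reads) in TELP N9 day 7, with under 0.01 RPKM at day 0 in both. Dnm3os had 14.8 and 6.53 RPKM in the standard libraries and 19.2 and 0.82 RPKM in TELP N9, a difference of -1.07 and -3.47 log2 units. Mir6995 had a listed 0 at day 0 and close to 1 read at day 7 in both library types. Its overlapping gene Sh3pxd2a had 108, 115 and 123 RPKM in standard day 0, TELP N9 day 0 and TELP N9 day 7, but under 0.01 RPKM in standard day 7, where Mir6995 had 217 RPKM.

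**Figure D3:**
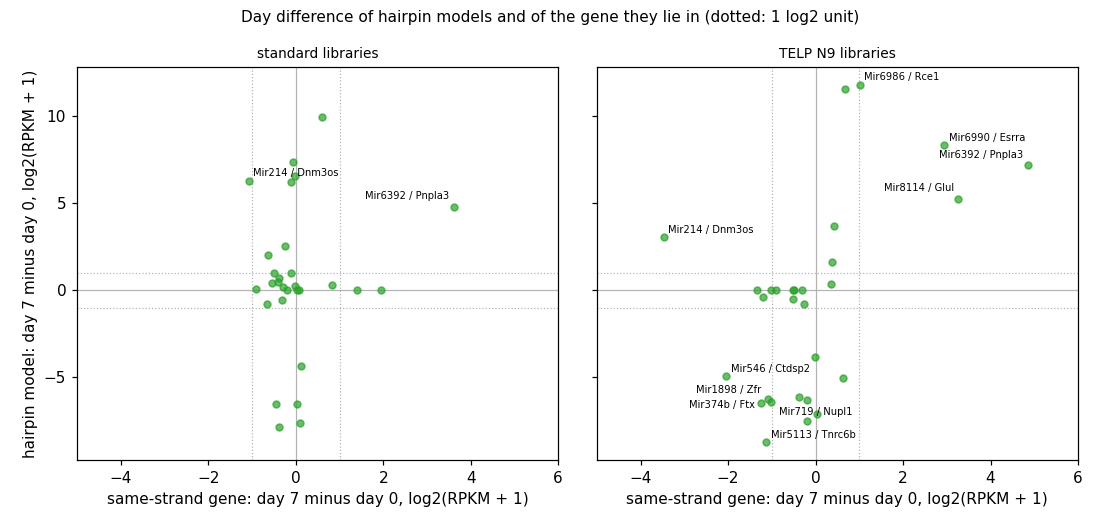
Day 7 minus day 0 on log2(RPKM + 1) for hairpin members (vertical axis) against the gene they lie in on the same strand (horizontal axis), in standard and TELP N9 libraries. Dotted lines mark 1 log2 unit and names mark pairs beyond it on both axes. In TELP N9 Mir6392, Mir6990, Mir8114 and Mir6986 are higher together with their genes, and Mir214 is higher where Dnm3os is lower.

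Many hairpins that were higher or lower at day 7 have no same-strand gene that passed the filter. In the standard libraries 9 of the 14 higher members lay in a same-strand gene that passed the filter. Only the gene of Mir6392 was also higher, that of Mir214 was lower, and 7 were neither. The 5 genes of lower members were neither. In TELP N9 the genes of 8 higher members could be read: 4 were higher, 1 was lower and 3 were neither. Of the genes of 9 lower members 5 were lower, those of Mir374b, Mir5113, Mir546, Mir719 and Mir1898, and 4 were neither. Of all genes tested 8.22% were higher and 6.53% lower in the standard libraries, and 13.9% and 29.9% in TELP N9. For hairpins that went with their gene in TELP N9, estimated reads in the higher library ran from 0.99 for Mir6986 to 119 for Mir8114. The hairpins were chosen on these libraries, so nothing is read from these counts.

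TELP N9 was set against standard at day 0. Of 54 members that passed the filter, 19 were higher in TELP N9, with 2.2% of all genes tested higher, and 15 were lower, with 0.718% of all genes lower. The members were chosen on these libraries and many hold few reads, so nothing is read from the gap between these shares. The median difference of the 54 members was 0.18, against 0.01 over all genes tested. Of the 34 counted, 10 were listed at 0 in a library, and 12 had at most 3 rounded reads in the higher one. With more than 3 there, 16 were higher and 6 lower. The higher ones included Mir703 at 3.58, Mir682 at 2.82 and Mir692-2 and Mir692-3 at 2.17 log2 units. Mir692-1 had 0.68 estimated reads with the standard procedure at day 0 and 179 reads with TELP N9. Mir546, within Ctdsp2, was the lower member with the most reads, at 647 RPKM (41.0 reads) in standard day 0 and 29.7 RPKM (3.29 reads) in TELP N9 day 0. Ctdsp2 had 124 and 164 RPKM there, and so was not lower.

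At day 7 TELP N9 and standard differed in 46 of 53 members. In TELP N9 13 were higher, with 7.51% of all genes tested higher, and 33 were lower, with 17% of all genes lower. The median difference of the 53 members was -2.75, against -0.23 over all genes tested, and 23 of the 46 counted were listed at 0 in a library. At 100 nt 1 read was worth 38.8 RPKM in standard day 7 and 105 RPKM in TELP N9 day 7, and the part of this gap in the counts was not tested. With more than 3 rounded reads in the higher library 4 hairpin members were higher and 13 lower. The 4 were Mir8114, Mir8112, Mir6236 and Mir130c. Mir130c had 257 RPKM (2.68 reads) in standard day 7 and 1042 RPKM (4.00 reads) in TELP N9 day 7. Mir568, on the opposite strand to Tigit, was the lower one with the largest difference, from 1184 RPKM (13.1 reads) in standard day 7 to a listed 0.

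Of 47 members in the comparisons of both days, 5 were higher in TELP N9 than in standard at both, with 0.638% of all genes higher at both: Mir148a, Mir697, Mir8098, Mir8112 and Mir8114. Another 11 were lower at both days, with 0.2% of all genes lower at both, namely Mir1892, Mir1982, Mir3060, Mir331, Mir351, Mir546, Mir6340, Mir686, Mir7-1, Mir8094 and Mir99a. The rule used these libraries, so nothing is read from these shares. Of the higher ones Mir148a, Mir697 and Mir8098 had 0.95 to 0.98 reads in TELP N9 day 7, and Mir8112 and Mir8114 had 31.0 and 119. Of the lower ones Mir3060, Mir331, Mir351 and Mir7-1 had at most 1.97 reads in a standard library, and Mir546 had the most, about 41. Mir1892, in Sptssa, had 784 and 835 RPKM (7.33 and 7.68 reads) in the standard libraries and under 0.01 RPKM in the TELP ones. Mir8094, in the helicase gene Ddx39b, showed the same order with 105 and 144 RPKM (5.57 and 7.80 reads) against under 0.01 RPKM. Ddx39b itself differed by 0.05 and 0.14 log2 units at the 2 days. In RPKM, Mir1982 and Mir686 went against their genes. Oaz1, which encodes antizyme, was higher in TELP N9 by 2.44 and 2.56 log2 units, and the proteasome gene Psmb5 by 1.52 and 1.32. At day 0 Mir1982 had an estimated 3.01 reads with the standard procedure and 3.00 with TELP N9. Its lower RPKM at that day thus did not stand for fewer reads. At day 7 it had 2.02 reads against a listed 0. Mir686 had 4.80 and 5.82 reads with the standard procedure, against 2.41 reads and under 0.01 RPKM with TELP N9.

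**Figure D4:**
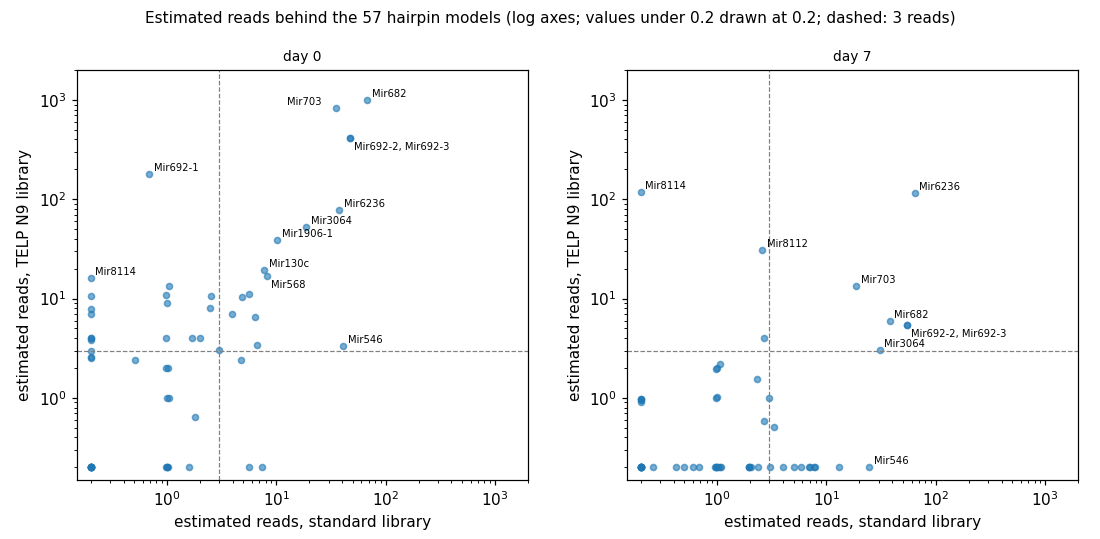
Estimated reads behind the 57 hairpin members in the TELP N9 library (vertical, log axis) against the standard library (horizontal, log axis) of the same day, with values under 0.2 drawn at 0.2 and dashed lines at 3 reads. At day 0 Mir682, Mir703 and the Mir692 copies have the most reads in TELP N9, and at day 7 most members lie at or near the bottom edge.

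T18 was set against TELP N9 at day 7, where 30 members passed the filter and 31 did not. In T18 7 were higher, with 0.841% of all genes tested higher, and 19 were lower, with 83.4% of all genes lower. The median difference of the 30 members was -3.78, against -1.77 over all genes tested, so a member at the median of all genes would already be counted as lower. With median of ratios scaling, which brings the median of all genes to -0.11, 11 members were higher and 17 lower, so 39.3% of those counted were higher in place of 26.9%. The 7 higher were Mir6236, Mir682, Mir568, Mir5046, Mir8108, Mir546 and Mir8097. Of these Mir6236 and Mir682 had more than 3 reads when rounded, with Mir568 next at 3.03, and Mir682 had 5.91 reads in N9 and 11.8 in T18. Mir5046 had the largest difference, from a listed 0 to 2075 RPKM, which at its length of 59 nt is 0.80 of a read. Of the 19 lower, Mir8114 had the most reads in N9, 119, and was listed at 0 in T18 while Glul had 120 RPKM there. Mir22hg differed by -1.46 log2 units as deposited, but by 0.55 with median of ratios scaling and 0.61 with quantile normalization.

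Members make up 5.64% of all microRNA symbols in the table. Of 44 hairpins in the table that are reported to promote or mark fat cell formation, 1 is a member (2.27%) and 38 were listed at 0 in all 5 libraries. Of 47 that are reported to oppose it, 5 are members (10.6%) and 31 were listed at 0 throughout. Of 20 microRNAs of other tissues, 1 is a member (5%) and 19 were listed at 0 throughout. The lists were drawn up with earlier results of these data known.

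Mir148a, on the first list, stood at a listed 0 in both standard libraries and T18, and had 57.5 RPKM (3.00 reads) in TELP N9 day 0 and 107 RPKM (0.98 reads) in TELP N9 day 7. The higher RPKM thus stands for fewer reads. The let-7 members, which share the seed shown above, were highest in TELP N9 day 0. There Mirlet7c-1 had 210 RPKM (8.99 reads), Mirlet7d had 66.0 RPKM (3.99 reads) and Mirlet7i had 139 RPKM (4.00 reads). All 3 were listed at 0 in both day 7 TELP libraries. In the standard libraries Mirlet7c-1 had 49.2 and 49.95 RPKM and Mirlet7d 32.7 and 33.2 RPKM, each close to 1 read. Mirlet7i was listed at 0 in standard day 0 and had 80.8 RPKM, 1 read, in standard day 7.

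Mir29c, of a family known for collagen targets, had 162 RPKM (2.37 reads) in standard day 7 and 78.1 RPKM (2.59 reads) in TELP N9 day 0, and a listed 0 in the other 3. Mir31, in humans and mice known as a regulator of mesenchymal differentiation, had 28.8 RPKM (0.98 reads) in standard day 0 and 29.6 RPKM (2.00 reads) in TELP N9 day 0, and a listed 0 at day 7. Mir7-1, a microRNA of neurons and endocrine cells, had 26.6 and 54.0 RPKM (0.98 and 1.97 reads) in the standard libraries and a listed 0 in all TELP ones. It lies in Hnrnpk, which had 130, 92.4, 179, 126 and 25.2 RPKM. A further 12 hairpins of the 2 adipose lists were above 1 RPKM in exactly 1 library, most with close to 1 read, and the highest read estimate was 10.0 for Mirlet7f-1 in TELP N9 day 0.

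Members and other microRNA models differed at the median in length and in the level of the gene around them, with quartiles that overlap. The median model length was 99 nt in the 57 hairpin members (quartiles 83 and 110) and 79 nt in 1018 other microRNA models (66 and 93). The GC content had medians of 52.3% in 47 members and 51.9% in 858 others. A same-strand gene was found for 30 of 57 members (52.6%) and for 521 of 1019 others (51.1%). These shares are incomplete, since 17 members and 217 others overlap a gene whose relative strand is not given. Only an opposite-strand gene was found for 4 members and 61 others, and no gene for 6 members and 220 others. The genes of 29 members had a median of 15.2 RPKM in standard day 0 (quartiles 5.61 and 37.2), against 7.82 RPKM for 429 genes of the others (0.576 and 19.4). Both groups were set apart by the rule, which used the hairpin values, so these are descriptions.

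Shares above 1 RPKM were taken over all hairpins with a same-strand gene in the table. They grew with the level of that gene in both standard libraries and TELP N9 day 0. In standard day 0 the share was 2 of 142 for genes up to 1 RPKM (1.41%) and 8 of 161 from 1 to 10 RPKM (4.97%). It was 11 of 166 from 10 to 50 RPKM (6.63%) and 7 of 50 above 50 RPKM (14.0%). In TELP N9 day 0 the shares were higher in each class, at 2.13%, 8.44%, 11.9% and 19.1%. In TELP N9 day 7 they were 1.16%, 1.10%, 7.09% and 13.2%, with no rise from the lowest class to the next. Even in the highest class fewer than 1 in 5 hairpins were above 1 RPKM in any of the 4 libraries. Hairpins in 1 host gene are not independent, and strand handling in the authors' counting is not given in the sources used here.

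**Figure D5:**
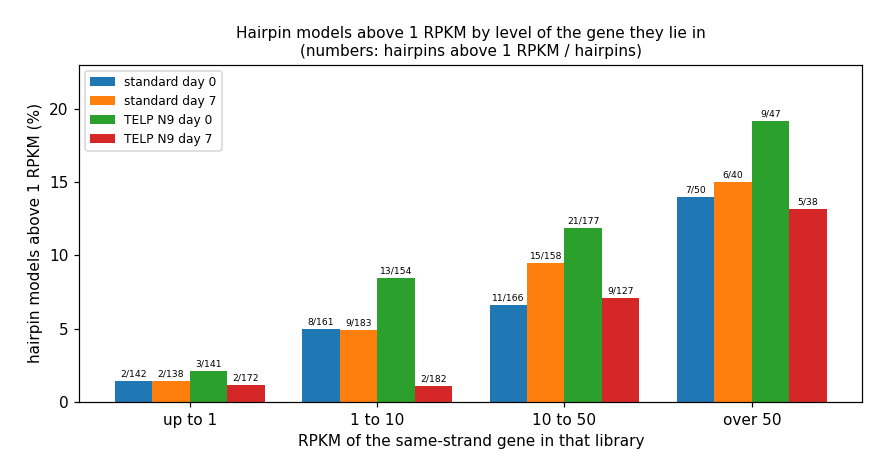
Percent of microRNA hairpin models above 1 RPKM (vertical axis) in classes of the RPKM of the same-strand gene in that library (horizontal axis), for 4 libraries, with the counts above each bar. In all 4 libraries the share is highest, 13.2% to 19.1%, for genes above 50 RPKM.

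The genes that make and use microRNAs were measured on long models. Of 21 listed genes, 19 were above 1 RPKM in at least 1 library, and the exceptions were Lin28a and Lin28b, which block let-7 maturation. In the standard libraries 0 of 19 genes that passed the filter were higher or lower at day 7, with a median difference of -0.39. Of all genes tested there, 8.22% were higher and 6.53% lower. In TELP N9 1 was higher and 12 were lower, where 13.9% of all genes tested were higher and 29.9% lower. The median there was -1.09, against -0.45 over all genes tested. Drosha had 24.3 and 15.2 RPKM in the standard libraries and 15.5 and 6.32 RPKM in TELP N9. Dicer1 had 8.76 and 5.72 RPKM in the standard libraries and 7.92 and 3.27 RPKM in TELP N9. Tarbp2, which encodes a partner of Dicer1, was the 1 higher gene, with 5.37 and 14.5 RPKM in TELP N9 and 3.06 and 4.53 RPKM in the standard libraries. In T18 16 of 17 were lower than in TELP N9 day 7, where 83.4% of all genes tested were lower.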

How the data were processed

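RNA was measured in 6 libraries, 1 per group, of which 5 were compared. The authors deposited RPKM values for 24029 genes. Per the submitters' processing notes the tools were Bowtie2, TopHat and Cufflinks and the build was mm9, and no version, annotation, strand setting or read total is given in the sources. RPKM of a hairpin shorter than a sequenced fragment depends on how the authors corrected for length, so such values can be very large for few reads.

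Differences were taken on log2(RPKM + 1), over genes whose mean was 1 RPKM or more, counted at 1 log2 unit or more, with no test. The value of 1 read was estimated after the data had been seen, from models of 55 to 160 nt. It was taken as the length curve that brought most low values to whole multiples. The procedure was tested on simulated whole reads placed on a known curve, which cannot show how well it holds in these libraries. Names, lengths, neighbours and sequences come from RefSeq on GRCm38.p6. Software was Python 3.11.15, numpy 2.4.6, pandas 2.3.3 and matplotlib 3.10.9.

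The members and lists were chosen with earlier results of these data known. Named members were the 8 with the highest median, the 5 highest and 5 lowest per comparison, those on the lists and those above 1 RPKM in all 5 libraries. Mir214, Mir1898, Mir3063 and other members in small counts were named after their values were seen. Alternatives were a pseudocount of 0.1, no filter, a filter at 5 RPKM, 3 scalings and the N9_ss library in place of N9. Counts of hairpins with more than 3 reads, rounded to whole reads, and over values above 0.01 RPKM in both libraries were added later.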

Additional observations from a re-analysis of the deposited data

Results flagged for a closer look

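For 6 of the 48 members in both day comparisons, the day 7 minus day 0 difference reached 1 log2 unit in opposite directions in the standard and TELP N9 libraries. Of all genes in both, 0.155% were higher in standard and lower in TELP N9, and 0.0728% the reverse. The rule used these libraries and many members hold few reads, so nothing is read from these shares. With 1 library per group this disagreement was not tested.

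Higher at day 7 in standard and lower in TELP N9 were Mir1898, Mir1905, Mir29c, Mir3063 and Mirlet7i. Mir1898 had 89.8 and 364 RPKM in standard day 0 and day 7 (1.02 and 4.03 estimated reads), and 76.2 RPKM (2.00 reads) and a listed 0 in TELP N9. Mir1905 had 0.10 and 65.2 RPKM in standard, the latter 0.68 of a read, and 429 RPKM (10.7 reads) and a listed 0 in TELP N9. Mir29c had 162 RPKM (2.37 reads) in standard day 7 and 78.1 RPKM (2.59 reads) in TELP N9 day 0. Mir3063 had 59.3 RPKM (1.06 reads) in standard day 7 and 64.5 RPKM (2.54 reads) in TELP N9 day 0. Mirlet7i had 80.8 RPKM (1.00 read) in standard day 7 and 139 RPKM (4.00 reads) in TELP N9 day 0. Mir29c, Mir3063 and Mirlet7i were listed at 0 in the other 2 of these 4 libraries. Mir707 alone went the other way, with 92.4 RPKM (0.51 reads) in standard day 0, 0 in standard day 7, 154 RPKM (2.39 reads) in TELP N9 day 0 and 471 RPKM (0.92 reads) in TELP N9 day 7.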

How the results depend on the processing

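Under another pseudocount and 3 other scalings 658 of 696 differences of named members kept their side of 1 log2 unit, 36 changed it and 2 reversed. Filters leave a member's own difference as it is, and N9_ss shares reads with N9, so these are not counted. The 2 were Mir22hg in T18 against TELP N9, which became 0.55 with median of ratios scaling and 0.61 with quantile normalization. Median of ratios scaling also raised the members higher in T18 from 7 to 11. The 3 other scalings put the median of all genes at -1.71 to 0.0039 in this comparison, -1.77 as deposited, at -0.89 to -0.05 for the day difference in TELP N9, -0.45 as deposited, and at -0.91 to 0.02 for TELP N9 against standard at day 7, -0.23 as deposited.

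The numbers of members depended most on those at or near 0. Limited to members above 0.01 RPKM in both libraries, members higher and lower at day 7 were 6 and 3 in standard and 4 and 7 in TELP N9. TELP N9 against standard then gave 10 and 7 at day 0 and 8 and 7 at day 7, and T18 against TELP N9 gave 2 and 3. Limited to hairpins with more than 3 rounded reads in the higher library, members higher and lower at day 7 were 1 and 1 in standard and 3 and 21 in TELP N9. TELP N9 against standard at day 0 then gave more members higher than lower, as counted above for that comparison, with 6 lower. At day 7 it gave 4 and 13, and T18 against TELP N9 gave 2 and 4. At 100 nt 1 read was worth most in the day 7 TELP libraries, 105 RPKM in N9 and 113 RPKM in T18, and this factor changes with length. No paired analysis was possible because each group holds 1 library and its labels carry no replicate number.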
